A study of Mus musculus with 6 samples.

Results

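Macrophages of the heart can be told apart by the surface molecules they carry, and 10 genes for such molecules are described here in the hearts of tumour-bearing mice given doxorubicin (Dox), ginsenoside Rh2 (Rh2) or both. They were chosen by symbol as known markers, with earlier results of these data known, and are 10 of the 45777 genes in the expression table. Resident macrophages were represented by Lyve1, Folr2, Timd4, Cd163 and Mrc1, and macrophages in general or recruited ones by Cd68, Adgre1, Csf1r, Trem2 and Ly6c2. All 10 passed the filter on low counts (a mean of 10 or more), with 18328 genes in all.

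RNA was taken from the hearts of BALB/c nude females (CAnN.Cg-Foxn1nu/Crl), a strain that lacks a thymus and most T cells, and every mouse in every group carried a subcutaneous MDA-MB-231 tumour, a human breast cancer line. The labels give an age of 6 weeks, but per the methods treatment began only after that age, so the mice were older when the hearts were taken. There were 6 conditions. Without Dox, mice received vehicle (Control) or Rh2 at either dose (Rh2-20 mg/kg and Rh2-30 mg/kg), and with Dox they received Dox alone or with either dose (Rh2-20 mg/kg + Dox, and at the higher dose Rh2-30 mg/kg + Dox). Dox was injected at 2 mg/kg every other day to 22 mg/kg in total, and Rh2 daily in PBS with Tween 80, over 3 weeks. Each condition had 1 library, pooled from 5 hearts, so no difference between single libraries has a replicate check, and none is given a p-value. Libraries held 86164411 to 90621002 counts, and counts of single genes are given below as deposited.

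The heart holds macrophages seeded before birth, which renew themselves in the tissue, and macrophages that derive from blood monocytes. Self-renewing cells are known for the hyaluronan receptor LYVE1, the folate receptor FOLR2 and the apoptotic cell receptor TIMD4, while classical monocytes carry Ly6C and enter injured tissue through the chemokine receptor CCR2. In whole tissue, fewer cells of a type and less RNA per cell cannot be told apart.

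Macrophage genes are often read from promoters that carry sites for the ETS factor PU.1, so the sequence just upstream of 4 of the genes is shown, with Ly6c1 added as the near copy of Ly6c2. The bases are those of RefSeq on GRCm38.p6, written 5′ to 3′ on the strand of the gene, up to 250 bases before a transcription start and without bases inside the annotated gene. Capitals mark AGGAAGT, a core of the PU.1 site, on either strand (ACTTCCT where it lies on the other). Mrc1 is shown at chr2:14229164-14229413 (plus strand), Folr2 at chr7:101857191-101857440, Cd68 at chr11:69666171-69666420, Ly6c2 at chr15:75112067-75112221 and Ly6c1 at chr15:75048921-75049087 (all minus strand).
Mrc1: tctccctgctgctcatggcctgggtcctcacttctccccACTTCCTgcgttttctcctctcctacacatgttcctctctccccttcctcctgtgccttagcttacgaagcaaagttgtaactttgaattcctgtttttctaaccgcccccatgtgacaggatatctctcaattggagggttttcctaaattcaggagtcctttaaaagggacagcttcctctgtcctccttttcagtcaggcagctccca
Folr2: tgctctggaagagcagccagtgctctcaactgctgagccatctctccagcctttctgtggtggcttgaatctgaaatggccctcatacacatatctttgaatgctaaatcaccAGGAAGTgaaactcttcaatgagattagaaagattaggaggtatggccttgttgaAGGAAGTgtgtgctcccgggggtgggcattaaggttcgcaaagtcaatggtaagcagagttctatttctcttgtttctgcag
Cd68: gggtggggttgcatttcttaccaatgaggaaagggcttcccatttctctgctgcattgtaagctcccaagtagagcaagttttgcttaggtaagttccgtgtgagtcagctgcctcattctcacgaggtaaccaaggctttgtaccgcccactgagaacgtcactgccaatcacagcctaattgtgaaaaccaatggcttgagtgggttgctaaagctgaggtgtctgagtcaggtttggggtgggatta
Ly6c2: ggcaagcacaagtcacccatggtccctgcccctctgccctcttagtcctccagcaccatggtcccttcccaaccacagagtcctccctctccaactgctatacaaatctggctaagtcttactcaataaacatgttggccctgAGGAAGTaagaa
Ly6c1: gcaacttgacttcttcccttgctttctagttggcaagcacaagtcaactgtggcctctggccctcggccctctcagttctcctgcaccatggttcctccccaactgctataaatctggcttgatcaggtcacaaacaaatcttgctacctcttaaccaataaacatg
The letters AGGAAGT lay 211 bases upstream of the start in Mrc1, 137 and 82 in Folr2 and 107 in Ly6c2, and they were not found in these stretches of Cd68 and Ly6c1. Another annotated start of Ly6c1 had the letters 126 bases upstream. The window of another Ly6c2 start overlaps the first, and its matches at 141 and 7 bases are the same site counted from that start and 1 more. By gene, 3 of the 7 with a window had the letters, and by window 4 of 9 of 250 bases, with the shared Ly6c2 site in 2 of the 4, beside 7.69% of 32851 such windows of all genes. The MAF half-site TGCTGAC was in 1 of the 9, that of Timd4, and in 3.81% of all windows, and TATAAA was in 0 of 9 and in 12.4%. All 3 motifs were searched on both strands, and none overlaps another. A match is a description of the letters and not of binding. Lyve1, Adgre1 and Csf1r are named only.

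By FPKM, the deposited value per length of transcript, Ly6c2 was the most abundant of the 10 at 45.4 ± 10.2 FPKM (SD over the 6 libraries, which differ in treatment) and Mrc1 the next at 26.4 ± 8.15 FPKM. Cd163 had 12.5 ± 3.94 FPKM and Csf1r 9.84 ± 3.15 FPKM. Cd68 had 5.65 ± 2.27 FPKM, Adgre1 4.19 ± 1.37 FPKM, Lyve1 4.13 ± 1.31 FPKM and Folr2 2.54 ± 0.985 FPKM. Timd4 and Trem2 were lowest, at 0.989 ± 0.556 FPKM and 0.717 ± 0.282 FPKM. The ranges of neighbours in this order overlapped over the libraries, but within a library 6 of the 9 neighbouring pairs held their order in all 6 libraries. The other pairs were Cd68 above Adgre1 in 5 libraries, Adgre1 above Lyve1 in 3 and Timd4 above Trem2 in 4. The markers of macrophages were thus detected in every library, with Trem2 the least counted at 59 to 160 counts.

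The 10 genes did not move as 1 group over the conditions. On the scale of CPM (counts scaled to the library size after TMM normalization), the level of a gene in its highest library was 1.78 times that in its lowest for Ly6c2 and 1.90 times for Mrc1, but 2.71 times for Cd68 and 3.62 times for Timd4. The Rh2-30 mg/kg library was the highest of the 6 for 8 of the 10, all but Lyve1 and Ly6c2, where 26.1% of all genes tested had their highest CPM there. The Rh2-30 mg/kg + Dox library was the lowest for 6 of the 10 (Folr2, Timd4, Cd68, Adgre1, Csf1r and Trem2), beside 23.2% of all genes. These 2 counts were made after the values were seen. The bar plots of CPM by library show each gene on its own scale.

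**Figure D1:**
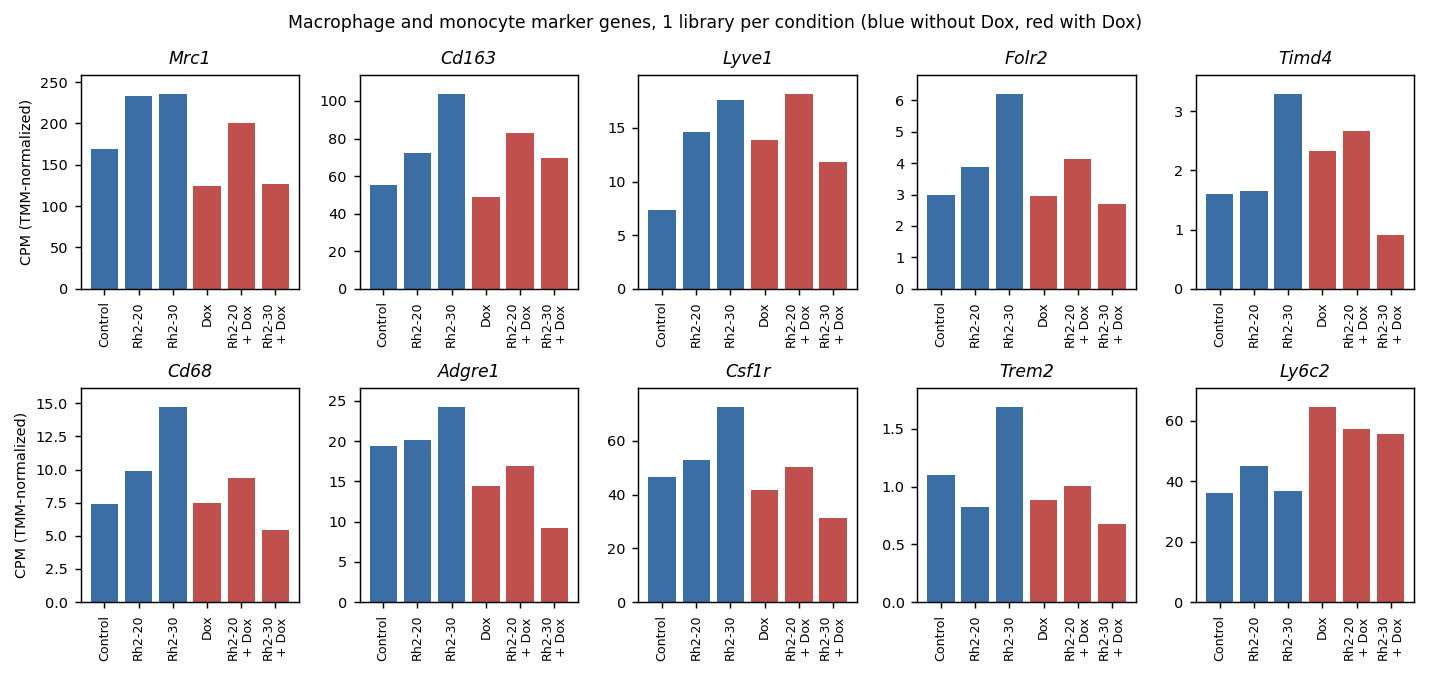
CPM (TMM-normalized) of the 10 genes in the 6 libraries, 1 bar per library, blue without Dox and red with Dox, each panel with its own axis from 0. Cd68 ran from 5.42 CPM in Rh2-30 mg/kg + Dox to 14.7 CPM in Rh2-30 mg/kg, while Ly6c2 was higher in the 3 Dox libraries (55.4 to 64.4 CPM) than in the 3 others (36.2 to 45.1 CPM).

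The first question was how Dox changes the markers, which 3 pairs of libraries address at no Rh2, 20 mg/kg and 30 mg/kg. Dox went with more Ly6c2 in each pair and with less Mrc1, Adgre1 and Csf1r in each pair. Among all genes tested, 16% were higher in all 3 pairs and 17.6% lower in all 3. None of the 10 was past 2-fold in all 3 pairs, where 0.186% of all genes were higher and 0.497% lower. The size differed much between pairs. With Dox over Control and with Rh2-20 mg/kg + Dox over Rh2-20 mg/kg, 0 of the 10 genes were past 2-fold, where 5.44% of all genes were at least 2-fold higher and 3.58% lower in the first, and 4.09% and 2.87% in the second. With Rh2-30 mg/kg + Dox over Rh2-30 mg/kg, 6 of the 10 were at least 2-fold lower (Folr2, Timd4, Cd68, Adgre1, Csf1r and Trem2), where 12.1% of all genes were lower and 2.4% higher. The median log2 ratio of the 10 genes was -0.09, 0.15 and -1.20 in the 3 pairs, and that of all genes lay between -0.03 and 0.00.

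The macrophage markers in general were lowest where Rh2-30 mg/kg and Dox were combined. Adgre1 (chromosome 17, 57358581 to 57483529) encodes F4/80, the classical surface antigen of mouse macrophages. It had 19.3 CPM in Control against 14.5 in Dox, 20.1 against 16.9 CPM without and with Dox at 20 mg/kg Rh2, and 24.2 against 9.18 CPM at 30 mg/kg. All 3 Dox libraries lay below all 3 without Dox, as was so for 9.16% of all genes. The log2 ratio was -0.42 for Dox over Control (95% interval of counting error -0.53 to -0.31), -0.25 at 20 mg/kg (-0.35 to -0.15) and -1.40 at 30 mg/kg (-1.52 to -1.28). A wider interval that adds the common dispersion between libraries, 0.0285, held 0 in the first pairs (-1.10 to 0.26 and -0.93 to 0.43) but not at 30 mg/kg (-2.08 to -0.71, or -2.58 to -0.22 with the larger likelihood estimate of the dispersion, 0.0864). In edgeR's quasi-likelihood test of the 3 Dox libraries against the 3 others, the log2 fold change of Adgre1 was -0.65 (SE 0.22, adjusted p = 0.414).

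Csf1r encodes the receptor for CSF1 and IL34, on which macrophages depend for survival. Its levels without Dox were 46.6, 52.7 and 72.4 CPM at no Rh2, 20 mg/kg and 30 mg/kg, and 41.7, 50.2 and 31.4 CPM with Dox. Cd68, a glycoprotein of late endosomes and lysosomes, had 7.39, 9.86 and 14.7 CPM in the libraries without Dox and 7.51, 9.36 and 5.42 CPM in those with it, in the same order. Both genes had nearly the same level with and without Dox at no Rh2 and at 20 mg/kg, with log2 ratios of -0.16 and -0.07 for Csf1r and 0.02 and -0.07 for Cd68. At 30 mg/kg the library with Dox had 2.31 times less Csf1r (log2 ratio -1.21, counting interval -1.27 to -1.14, wider interval -1.88 to -0.53) and 2.71 times less Cd68 (-1.44, -1.59 to -1.29, -2.13 to -0.75). Trem2, a lipid receptor of macrophages that clear debris, was thinly counted, with 92, 74 and 160 counts without Dox and 74, 92 and 59 with it. Its log2 ratio at 30 mg/kg was -1.31 (-1.77 to -0.87, wider -2.11 to -0.51), and in the other pairs the counting interval held 0. Cd68, Csf1r, Adgre1, Folr2 and Trem2 went up and down together, with Pearson's r of 0.746 to 0.983 for the 10 pairs of genes over the 6 libraries, a set picked after the values were seen and given as a description, since the points share their libraries.

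**Figure D2:**
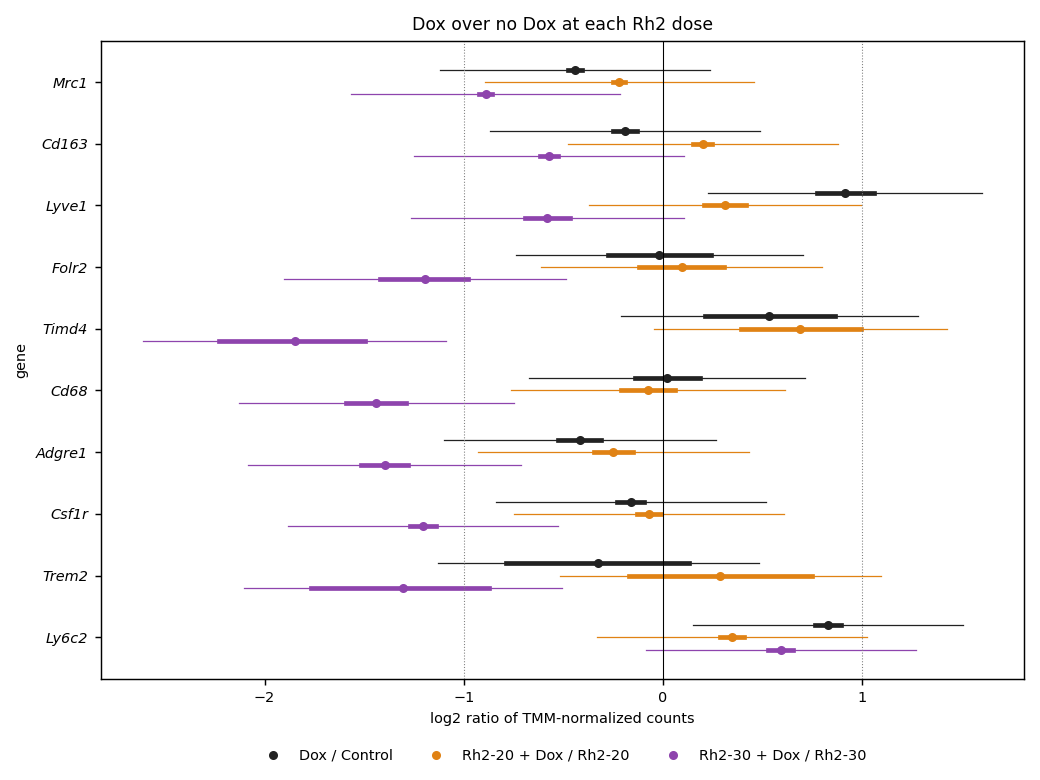
Log2 ratio of TMM-normalized counts for Dox over no Dox in the 3 pairs of libraries, 1 point per gene and pair. Thick bars are 95% intervals of counting error and thin bars add the common dispersion. At 30 mg/kg Rh2 the points of 9 genes lie below 0, down to -1.85 for Timd4, while Ly6c2 lies above 0 in each pair (0.83, 0.35 and 0.59).

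The resident markers were less alike. Mrc1 (chromosome 2, 14229414 to 14332023) encodes the mannose receptor CD206, whose upstream bases are shown above. It had 169 CPM in Control against 124 in Dox, 233 against 200.4 CPM at 20 mg/kg Rh2 without and with Dox, and 235 against 127 CPM at 30 mg/kg. Its lowest libraries were Dox alone and the combination at 30 mg/kg, and the log2 ratios with Dox were -0.44 (counting interval -0.48 to -0.41), -0.22 (-0.25 to -0.19) and -0.89 (-0.92 to -0.86). The wider interval excluded 0 only at 30 mg/kg (-1.56 to -0.21), and there it held 0 with the larger dispersion (-2.06 to 0.29). Over the 3 Dox libraries against the 3 others the log2 fold change of Mrc1 was -0.50 (SE 0.22, edgeR quasi-likelihood adjusted p = 0.514). The study also stained heart sections for CD206 protein and reports more positive cells with Dox alone and fewer with Rh2 and Dox. Mrc1 RNA, in contrast, was lower with Dox in each pair. Stained cells and RNA of whole tissue are different measures, and the stain is not analysed here.

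Cd163 (chromosome 6, 124304636 to 124330529), the scavenger receptor for haemoglobin bound to haptoglobin, kept a narrower distance between Dox and no Dox. Its levels were 55.5 CPM in Control and 48.7 in Dox, 72.3 in Rh2-20 mg/kg and 83.1 with Dox added, and 104 in Rh2-30 mg/kg and 69.7 with Dox added. The log2 ratios were -0.19, 0.20 and -0.57, and each wider interval held 0. Folr2 (chromosome 7, 101839988 to 101857190), the beta form of the folate receptor, had 2.98 and 2.94 CPM in Control and Dox, 3.89 and 4.15 CPM at 20 mg/kg without and with Dox, and 6.20 and 2.70 CPM at 30 mg/kg. Only the last pair was apart, at a log2 ratio of -1.20 (counting interval -1.42 to -0.98, wider -1.90 to -0.49).

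Lyve1 and Timd4 had higher values with Dox in 2 pairs and lower in the third. Lyve1 (chromosome 7, 110850607 to 110862953) had 7.36 CPM in Control against 13.9 in Dox, 14.6 against 18.2 CPM at 20 mg/kg Rh2, and 17.6 against 11.8 CPM at 30 mg/kg. Control was thus the lowest library for Lyve1 by a clear gap, and Dox over Control was 1.88-fold (log2 ratio 0.91, counting interval 0.77 to 1.06, wider 0.23 to 1.60), an interval that held 0 with the larger dispersion. The other log2 ratios were 0.31 and -0.58, with wider intervals of -0.37 to 0.99 and -1.26 to 0.10. Timd4 (chromosome 11, 46810786 to 46844333), a receptor for phosphatidylserine on dying cells, had 134 counts in Control and 196 in Dox, 149 and 245 at 20 mg/kg, and 312 and 79 at 30 mg/kg. Its log2 ratio at 30 mg/kg, -1.85, was the largest of the 10 genes (counting interval -2.23 to -1.50, wider -2.61 to -1.09). By FPKM the Dox library held the most Timd4, 1.72 FPKM against 1.54 in Rh2-30 mg/kg, while by CPM Rh2-30 mg/kg held the most, 3.29 against 2.33, so the place of the Dox library depends on the deposited unit.

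Lyve1 is also carried by lymphatic endothelium, and the markers of that cell type were compared. Mmrn1, which lymphatic vessels and platelets share, had 1514, 2125 and 2564 counts without Dox at no Rh2, 20 mg/kg and 30 mg/kg, and 3896, 5885 and 2651 counts with Dox. Prox1, the transcription factor that defines lymphatic endothelium and is also made by heart muscle, had 5433 to 8924 counts and was highest in Control, where Lyve1 was lowest. Reln, a secreted matrix protein of lymphatic vessels, was lowest in Control like Lyve1, at 28.1 CPM against 36.4 to 47.6 CPM in the 5 treated libraries. Ccl21a, a lymphatic chemokine, had 19.6 CPM in Control, 17.0 CPM in the combination at 30 mg/kg and 26.9 to 33.6 CPM in the 4 others. Flt4, the receptor for the lymphatic growth factor VEGFC, had 4689 to 5917 counts. Pdpn was lower with Dox in each pair. It had 3.79 CPM in Control against 2.87 in Dox, and 4.26 against 3.60 CPM at 20 mg/kg Rh2. At 30 mg/kg it had 6.25 against 1.88 CPM. Of the 6 genes of the list, Mmrn1 alone was at least 2-fold higher in Dox than in Control, as 5.44% of all genes were. The summed level of the 6 genes was 214 to 281 CPM, with none at 0 in any library. Their part in the values of Lyve1 was not tested.

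Ly6c2 (chromosome 15, 75108161 to 75112066), 1 of the genes for the Ly6C antigen of classical monocytes, went the other way. It had 36.2, 45.1 and 36.8 CPM without Dox at no Rh2, 20 mg/kg and 30 mg/kg, and 64.4, 57.3 and 55.4 CPM with Dox. The 3 Dox libraries were all above the 3 others, as was so for 7.85% of all genes. Dox over Control was 1.78-fold (log2 ratio 0.83, counting interval 0.77 to 0.89, wider 0.15 to 1.51, or -0.35 to 2.01 with the larger dispersion), and the other pairs had 0.35 (0.29 to 0.41) and 0.59 (0.53 to 0.65), with 0 inside the wider intervals. Over the 3 Dox libraries against the 3 others its log2 fold change was 0.58 (SE 0.12, adjusted p = 0.216 in edgeR's quasi-likelihood test). DESeq2's Wald test, which calls 2.32% of all genes, gave it an adjusted p of 0.00101, and the adjusted p over all 11 alternatives ran from 0.00101 to 0.513. The correlation of Ly6c2 with each of the other 9 genes over the 6 libraries was between -0.68 and 0.34, as a description.

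Ly6c1 is a near copy of Ly6c2 that blood endothelium expresses, and it was the larger of the pair in every library (132 to 224 FPKM against 32.2 to 58.7 FPKM for Ly6c2). It had 156 CPM in Control against 169 in Dox, 213 against 248 CPM at 20 mg/kg Rh2, and 175 against 234 CPM at 30 mg/kg. Both genes were thus higher with Dox in each pair, by log2 ratios of 0.12, 0.22 and 0.42 for Ly6c1. Of the counts of both genes, Ly6c2 held 27.6% in Dox (95% Wilson interval 27.0% to 28.2%) and 17.4% to 19.2% in the 5 other libraries, so that only the Dox library stood apart in the balance of the pair. A read cannot always be assigned to 1 of them. In the longest Ly6c2 transcript of GENCODE (822 bases), 112 of the 722 stretches as long as a read (15.5%) were also found in Ly6c1, and 390 of 792 stretches of 31 bases (49.2%). Upstream, the full windows of 250 bases of the pair were identical in 171 of 290 aligned columns (59%), and the sequences shown above are shorter stretches of these windows. The values of Ly6c2 are therefore uncertain to the extent that the authors' counting split such reads.

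Beyond the 10 genes, other lists of markers were read in the same pairs, as counts and medians. The shares of all genes at least 2-fold higher and lower were 5.44% and 3.58% with Dox over Control. They were 4.09% and 2.87% at 20 mg/kg, and 2.4% and 12.1% at 30 mg/kg. Of 20 genes for macrophages in general, 0 were past 2-fold with Dox over Control (median log2 ratio 0.00) and 0 at 20 mg/kg (0.05), and 14 were at least 2-fold lower at 30 mg/kg (-1.27). The most counted of them was Lyz2 (lysozyme), with 8297 counts in Control, 9407 in Dox, and 15516 without and 5328 with Dox at 30 mg/kg Rh2. Mertk, a receptor for engulfing dead cells, was an exception there at a log2 ratio of 0.05. Of 16 further genes of resident macrophages, 2 were at least 2-fold higher with Dox over Control (Pf4 at 2.36 and Vsig4 at 2.42 on the log2 scale), 3 were higher at 20 mg/kg, and 9 were lower at 30 mg/kg. Of 12 genes of lipid-associated macrophages, to which Trem2 belongs, 10 were lower at 30 mg/kg, 6 of them at least 2-fold (median -0.97). In that list 1 was at least 2-fold higher and 0 lower with Dox over Control, and 2 and 0 at 20 mg/kg. Stab1, a scavenger receptor, had 29284 counts in Control and 32893 in Dox.

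Genes of monocytes were higher with Dox, as Ly6c2 was, in 1 of the 3 pairs by their median. Of 14 such genes, 1 was at least 2-fold higher and 3 were lower with Dox over Control (5.44% and 3.58% of all genes). The median log2 ratio was -0.09. At 20 mg/kg 10 of the 14 were higher, with a median of 0.26. Past 2-fold, 3 were higher and 0 lower there (4.09% and 2.87% of all genes). At 30 mg/kg 1 was at least 2-fold higher and 6 lower (2.4% and 12.1% of all genes), with a median of -0.72. Ccr2, the receptor by which Ly6C-high monocytes leave the marrow, had 641 counts in Control and 601 in Dox, 832 and 1006 at 20 mg/kg, and 976 and 360 at 30 mg/kg, and it is named after its values were seen. Nr4a1, the factor of Ly6C-low monocytes that many tissue cells also induce, had log2 ratios with Dox of -1.74, -0.50 and -0.41 in the 3 pairs. Of 8 growth factors and chemoattractants of macrophages and monocytes, 7 passed the filter on counts and Csf2 had 0 counts in all libraries, which allows up to 3 counts in each. Csf1, the main growth factor of macrophages, had 2979 to 3742 counts, and Ccl2, the ligand of CCR2, had 340 counts in Control, 393 in Dox, and 288 without and 117 with Dox at 30 mg/kg Rh2. In the quasi-likelihood test of Dox against no Dox, 0 genes of any macrophage or monocyte list had an adjusted p under 0.05, and at an unadjusted p under 0.05 there were 2 of the 10 markers (Ly6c2 higher, where 4.2% of all genes were, and Adgre1 lower, where 5.91% were).

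The difference that went with Dox at 30 mg/kg Rh2 was not particular to macrophage genes. White fat markers (Adipoq, Plin1, Cidec and Retn, all 4 that passed the filter) were at least 2-fold lower with Dox in that pair, at a summed 74.3 CPM against 0.150 CPM, and Retn had 0 counts in Rh2-30 mg/kg + Dox. Ucp1, the gene of brown fat, which was looked at after the values were seen, had 6442 counts in Rh2-30 mg/kg and 0 to 12 in every other library. All 6 B cell markers were at least 2-fold lower (36.7 against 7.43 CPM summed). So were 4 of 6 fibroblast markers (2067 against 849 CPM), and the rest of that list was lower by less. All 7 genes of MHC class II (69.8 against 18.4 CPM), which present antigen on macrophages and B cells, were also at least 2-fold lower. Of all genes, 12.1% were at least 2-fold lower in this pair. Cardiomyocyte genes were the other way, with 18520 CPM summed in Rh2-30 mg/kg and 25120 CPM in Rh2-30 mg/kg + Dox, and 0 of 6 past 2-fold. Their part in the values of the macrophage markers was not tested. In the other pairs white fat had 1.46 CPM in Control against 15.7 in Dox, and 6.94 against 7.86 at 20 mg/kg.

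**Figure D3:**
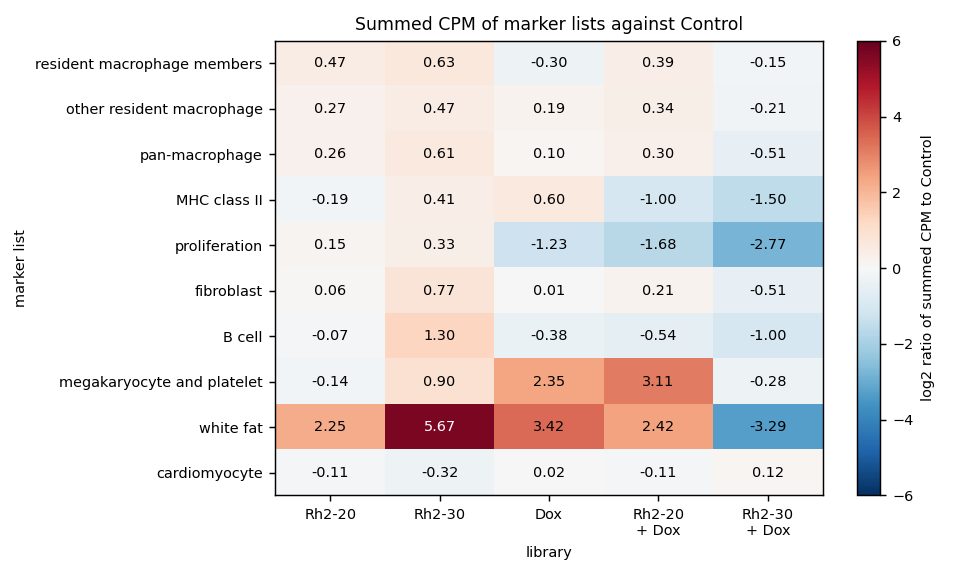
Log2 ratio of the summed CPM of 10 marker lists in each treated library to that in Control, with 1 row per list and 1 column per library, and the value in each cell. The 3 macrophage lists (0.47 to 0.63 in Rh2-30 mg/kg) move far less than the white fat list (5.67 there and -3.29 in Rh2-30 mg/kg + Dox).

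Platelet genes were highest in Dox and Rh2-20 mg/kg + Dox, while Timd4 and Vsig4 had their highest counts in Rh2-30 mg/kg. Summed over 7 genes of megakaryocytes and platelets, a list added after the values were seen, the level was 115 CPM in Dox and 194 CPM in Rh2-20 mg/kg + Dox against 18.4 to 41.8 CPM in the 4 other libraries, with no gene at 0. Pf4, which is on the list of resident macrophages and is also the main chemokine of platelets, had 524, 672 and 984 counts without Dox at no Rh2, 20 mg/kg and 30 mg/kg, and 2714, 3616 and 425 with it. Vsig4, a complement receptor of resident macrophages, had 49, 76 and 607 counts without Dox and 267, 516 and 86 with it, in the same order. Clec4f, a lectin best known from the Kupffer cells of liver, had 0, 0 and 44 counts without Dox and 48, 81 and 17 with it. Vsig4 and Clec4f are named after their values were seen. Timd4 had its 3 highest counts in the same 3 libraries as Vsig4 and Clec4f (Dox alone, Rh2 alone at 30 mg/kg, and Dox with Rh2 at 20 mg/kg), and the part of the platelet genes was not tested. A list of 4 hepatocyte genes, also added after the values were seen, with albumin (Alb) among them, summed to 0.0444 to 0.480 CPM, and Fgb had 0 counts in every library.

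The second question was what Rh2 did to the markers without Dox, where each dose is set against the Control library that both comparisons share. Of the 10 genes, 9 were above Control at 20 mg/kg and 10 at 30 mg/kg. The median log2 ratio of all genes tested was 0.00 at 20 mg/kg and 0.03 at 30 mg/kg. At 20 mg/kg, 0 were past 2-fold, where 3.35% of all genes were higher and 2.8% lower, and the median log2 ratio of the 10 genes was 0.35. At 30 mg/kg, 3 were at least 2-fold higher, all of them resident markers (Lyve1, Folr2 and Timd4), where 8.48% of all genes were higher and 1.63% lower, and the median was 0.77. The log2 ratios were 1.26 for Lyve1 (counting interval 1.13 to 1.40, wider 0.57 to 1.95), 1.06 for Folr2 (0.84 to 1.28, wider 0.35 to 1.77) and 1.03 for Timd4 (0.74 to 1.34, wider 0.30 to 1.76). Cd68 lay just under the threshold at 0.99 (0.85 to 1.13) and Cd163 at 0.90 (0.85 to 0.95). With the larger dispersion, the wider interval excluded 0 for Lyve1 (0.08 to 2.44) but no longer for Folr2, Timd4, Cd68 or Cd163. Ly6c2 had the same level as Control at 30 mg/kg (log2 ratio 0.02, counting interval -0.05 to 0.09). Of the 16 further resident genes, 7 were at least 2-fold higher and 0 lower at 30 mg/kg, with a median of 0.96, and of the 20 general ones 1 was higher, with a median of 0.50. In the same library white fat, B cell and fibroblast markers were higher than in Control (4 of 4, 6 of 6 and 2 of 6 past 2-fold), as given above, and their part was not tested.

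**Figure D4:**
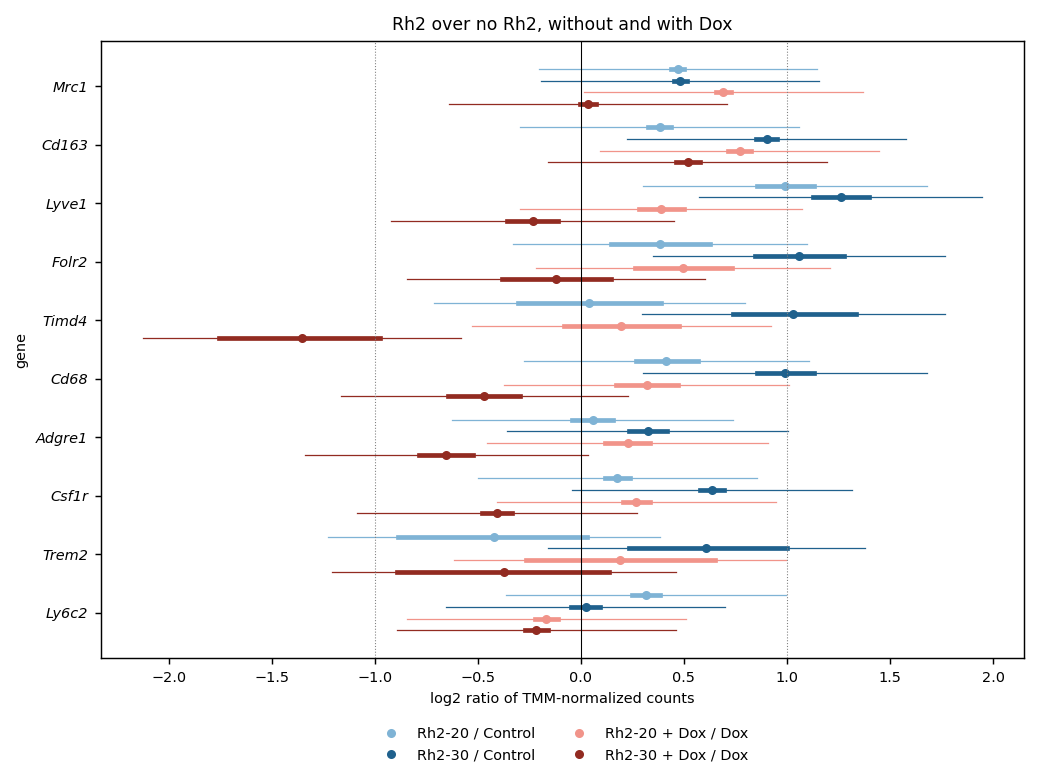
Log2 ratio of TMM-normalized counts for Rh2 over no Rh2, blue without Dox and red with it, paler for 20 mg/kg. Thick bars are 95% intervals of counting error and thin bars add the common dispersion. Cd163 and Mrc1 lie above 0 in all 4 comparisons (0.38 to 0.90 and 0.03 to 0.69), and Timd4 runs from 1.03 for Rh2-30 mg/kg over Control to -1.35 for Rh2-30 mg/kg + Dox over Dox.

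The third question was what Rh2 did on top of Dox. Here the doses went apart, both set against the same Dox library. With Rh2-20 mg/kg + Dox, 9 of the 10 genes were higher than with Dox alone and 0 were past 2-fold, where 3.08% of all genes were higher and 3.44% lower, and the median log2 ratio was 0.29. With Rh2-30 mg/kg + Dox, 8 of the 10 were lower, 1 of them past 2-fold (Timd4), where 2.76% of all genes were higher and 7.35% lower, and the median was -0.30. The median log2 ratio of all genes tested was 0.00 at 20 mg/kg and -0.02 at 30 mg/kg. Mrc1 was 1.61-fold higher at 20 mg/kg (log2 ratio 0.69, counting interval 0.66 to 0.73, wider 0.02 to 1.37) and at the level of Dox alone at 30 mg/kg (0.03, -0.00 to 0.07). Cd163 was higher at both doses, by 0.77 (0.72 to 0.83, wider 0.09 to 1.45) and 0.52 (0.46 to 0.58, wider -0.16 to 1.20). With the larger dispersion, the wider intervals at 20 mg/kg held 0 for Mrc1 and Cd163. Timd4 was lower by a log2 ratio of -1.35 at 30 mg/kg (-1.75 to -0.98, wider -2.13 to -0.58) and Adgre1 by -0.65 (-0.79 to -0.52, wider -1.34 to 0.03). Ly6c2 was slightly lower at both doses, with log2 ratios of -0.17 and -0.22. The genes of MHC class II were lower at both doses, 6 of 7 past 2-fold at 20 mg/kg (median -1.67) and 7 of 7 at 30 mg/kg (-2.08). Cd74, the invariant chain, had 3021 counts with Dox alone, and 1038 and 754 when 20 and 30 mg/kg Rh2 were added.

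Against Control, the combined treatments left 1 marker past 2-fold each. Lyve1 was 2.47-fold higher in Rh2-20 mg/kg + Dox (log2 ratio 1.30, counting interval 1.17 to 1.44, wider 0.62 to 1.99), where 5.13% of all genes were at least 2-fold higher and 3.62% lower. Adgre1 was lower in Rh2-30 mg/kg + Dox (log2 ratio -1.07, -1.20 to -0.95, wider -1.76 to -0.39, or -2.25 to 0.11 with the larger dispersion), where 6.85% were lower and 4.08% higher. Lyve1 was above Control in all 5 treated libraries, which share that 1 Control.

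Over all libraries, Rh2 was tested with the 4 Rh2 libraries against the 2 without it and Dox as a term. By edgeR's quasi-likelihood test 0 of the 10 genes had an adjusted p under 0.05, as was so for 0% of all genes, and at an unadjusted p under 0.05 there was 1, Cd163, where 4.09% of all genes were higher and 4.65% lower. Cd163 had a log2 fold change of 0.66 (SE 0.17, adjusted p = 0.567). All 4 Rh2 libraries held more Cd163 (69.7 to 104 CPM) than the 2 without Rh2 (48.7 and 55.5 CPM), as was so for 9.87% of all genes, while 9.08% were lower without overlap. DESeq2's Wald test, which calls 1.32% of all genes, gave Cd163 an adjusted p of 0.0185, and over the 11 alternatives it ran from 0.0185 to 0.873. Cd163 and Mrc1 were the genes higher with Rh2 in all 4 comparisons, where 16% of all genes were higher and 16.2% lower, and Mrc1 had a log2 fold change of 0.44 (SE 0.19, adjusted p = 0.572). Lyve1 had 0.59 (SE 0.30, adjusted p = 0.598). None of the 10 was past 2-fold in all 4 comparisons, where 0.202% of all genes were higher and 0.0764% lower. In the test of Dox, 0 of the 10 genes were called by edgeR at an adjusted p under 0.05, where 0.0164% of all genes were called higher and 0.0109% lower, and 1 (Ly6c2) by DESeq2. These tests treat libraries of different doses as replicates, as the study did. The spread behind their p-values therefore mixes differences between doses with those between pools. With 1 library per condition, these cannot be told apart.

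To see which markers moved beyond macrophage markers in general, each was set against the mean of Cd68, Adgre1 and Csf1r in the same library, a ratio in which a change shared by all of them cancels. Relative to Control, Lyve1 was higher in every treated library, by 0.61 to 1.38 on the log2 scale. Cd163 was 0.00 in Dox, 0.17 and 0.25 with 20 and 30 mg/kg Rh2, and 0.50 and 1.03 with these doses and Dox. Folr2 lay between 0.17 and 0.56 and Mrc1 between -0.26 and 0.29. Ly6c2 was 1.02, 0.58 and 1.31 in the 3 Dox libraries at no Rh2, 20 mg/kg and 30 mg/kg, but 0.10 and -0.63 with 20 and 30 mg/kg Rh2 alone. Timd4 was highest in Dox (0.72) and lowest in Rh2-20 mg/kg (-0.18), and Trem2 was at or below 0 in each (-0.64 to -0.00). So in Rh2-30 mg/kg + Dox, where the general markers were lowest, Cd163 and Lyve1 were the resident markers highest relative to them, and Timd4 was lowest. Without that division, the log2 ratio of this library to Control was 0.68 for Lyve1, 0.33 for Cd163 and -0.82 for Timd4. It was -0.45 for Cd68, -0.57 for Csf1r and -1.07 for Adgre1. A ratio to the general markers shows unequal change and not which gene changed.

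**Figure D5:**
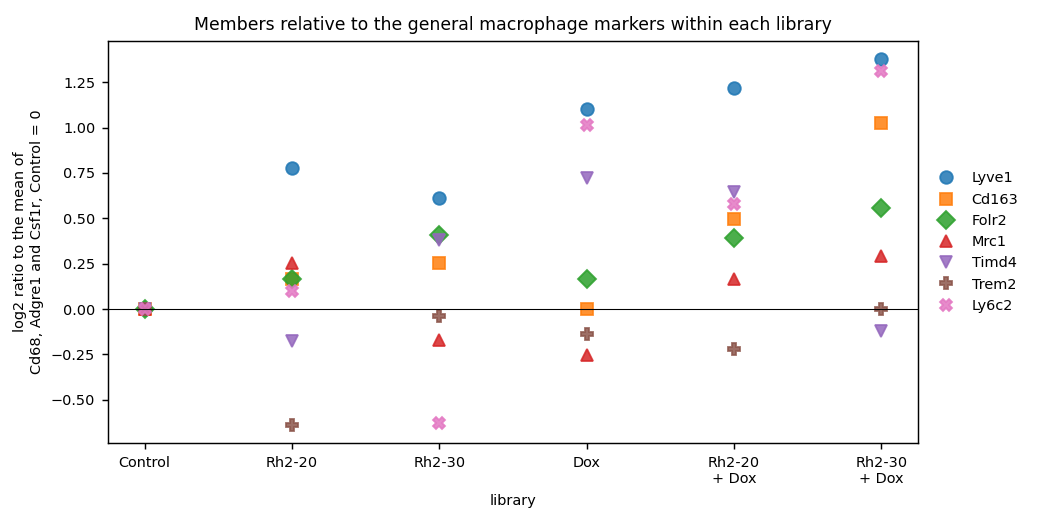
Log2 ratio of each marker to the mean of Cd68, Adgre1 and Csf1r within a library, set to 0 in Control, 1 point per gene and library. Lyve1 lies above 0 in all 5 treated libraries (0.61 to 1.38) and Ly6c2 in all but Rh2-30 mg/kg (-0.63).

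The genes whose pattern was most like that of Mrc1, by Pearson's r of log2 CPM over the 6 libraries among the 2000 genes that averaged 100 counts or more and had a range of at least 2-fold, were Csf2rb2 (0.989), P2ry10b (0.987), Tlr8 (0.986), Gm41107 (0.985) and Tlr13 (0.981). Csf2rb2 encodes a receptor subunit for IL3, and Tlr8 and Tlr13 encode receptors for RNA in endosomes. Tlr8 had 722, 1342 and 1612 counts without Dox at rising Rh2 dose and 554, 1098 and 543 with it, high and low in the same libraries as Mrc1. Among the 5 most like Ly6c2 were Gm12337 (0.946), Cmtm5 (0.946), Rergl (0.939) and Cyp26b1 (0.939). With 6 points and 2000 candidates, high values of r are a ranking and not a test.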

How the data were processed

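RNA from pooled mouse hearts was captured with the SureSelect XT RNA Direct kit and sequenced. Per the labels and methods, the authors used bcl2fastq 2.20.0, Trimmomatic, HISAT2 2.1.0 on mm10 with the UCSC annotation, and StringTie 2.1.3b. The deposited counts are not normalized. The deposited FPKM values, scaled by transcript length and library size, served for levels between genes and as alternatives. The deposited TPM values were not used. How reads shared by near copies were counted is not given in the sources used here.

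Samples were grouped by their titles. Tests ran in edgeR 4.0.16 and DESeq2 1.42.0 (R 4.3.3), and sequences and figures in Python 3.11.15 with Biopython 1.88 and matplotlib 3.10.9. Genes averaging 10 or more counts were kept, and TMM normalization was applied. Log2 ratios used a prior count of 0.5, with exact conditional binomial 95% intervals. Wider intervals added edgeR's robust common dispersion of the 6 libraries as 1 group (0.0285, its likelihood estimate being 0.0864). Intervals and the limit of 3 counts for a count of 0 cover counting error only. Dox (3 against 3) and Rh2 (4 against 2, with Dox as a term) were tested two-sided by the quasi-likelihood F test of edgeR, and p-values were adjusted after Benjamini-Hochberg over 18328 genes. SEs were derived from its F statistic. The quasi-likelihood test of Dox, without any effect of Rh2, and the counting interval were tested on simulated data. The test of Rh2, the wider intervals and DESeq2 were not.

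Besides the 10 genes, those named were the most counted of each list (at most 4), those past 2-fold in all 3 Dox or 4 Rh2 comparisons, the 5 most like Mrc1 and Ly6c2 (of which 1 is not reported here), and Ly6c1. Members and lists were chosen with earlier results of these data known. Ratios were recomputed with a prior count of 2, with size factors from DESeq2, without the filter, with FPKM plus 1 or plus 0.1, and edgeR's exact test, and the tests with each library left out, without both Rh2-30 mg/kg libraries, with DESeq2 and with other terms. Motifs were searched in RefSeq windows (GRCm38.p6) and shared stretches in GENCODE vM21 transcripts. Protein stains were not analysed here.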

Additional observations from a re-analysis of the deposited data

Results flagged for a closer look

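In 3 genes the ratio of Dox to no Dox had opposite signs at different Rh2 doses with counting intervals that excluded 0 on both sides. Folr2, Cd68 and Trem2 also had both signs, but each of their ratios above 0 had a counting interval that held 0. For Lyve1 the log2 ratio was 0.91 for Dox over Control and 0.31 at Rh2-20 mg/kg but -0.58 at Rh2-30 mg/kg, which are differences of 1.49 and 0.892. For Timd4 it was 0.53 and 0.69 but -1.85 at Rh2-30 mg/kg, differences of 2.38 and 2.54. For Cd163 it was -0.19 for Dox over Control, 0.20 at Rh2-20 mg/kg and -0.57 at Rh2-30 mg/kg, so that the ratio at Rh2-20 mg/kg lay 0.389 and 0.773 above the others. With 1 library per condition these differences were not tested.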

How the results depend on the processing

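No analysis paired by replicate was possible because the labels give no replicate numbers and each condition has 1 library. Pairing the libraries by Rh2 dose, as a term, left 0 of the 10 genes called for Dox and all 10 signs as they were, with 0.59 for Ly6c2 (adjusted p = 0.485) and -0.68 for Adgre1 (adjusted p = 0.566) in edgeR's quasi-likelihood test. With a prior count of 2, size factors from DESeq2 or no filter, 0 of the 90 log2 ratios of the 10 genes moved beyond their counting interval, while FPKM plus 1 moved 27 and FPKM plus 0.1 moved 22. With FPKM plus 0.1, 1 gene was past 2-fold in Dox over Control (Timd4) and 1 in Rh2-20 mg/kg over Control in place of 0, and 5 in Rh2-30 mg/kg over Control in place of 3. With FPKM plus 1 there was 1 in Rh2-30 mg/kg over Control, and 0 in Rh2-30 mg/kg + Dox over Control in place of 1. A raw p under 0.05 in edgeR's exact test left these counts at 3 and 1, and with the likelihood dispersion, chosen after seeing the data, at 1 and 0. With that dispersion the wider intervals without 0 went from 7 to 6 in Rh2-30 mg/kg + Dox over Rh2-30 mg/kg and from 2 to 0 in Dox over Control. They went from 1 to 0 for 20 mg/kg and 5 to 1 for 30 mg/kg Rh2 over Control, from 2 to 0 for the combination at 30 mg/kg over Control, and from 2 to 0 for that at 20 mg/kg over Dox. They stayed at 1 for the combination at 20 mg/kg over Control, at 1 for that at 30 mg/kg over Dox, and at 0 for Dox at 20 mg/kg. The wider intervals were not computed for all genes, so these counts show only how the 10 genes depend on the dispersion. The counts with FPKM and with the exact test are likewise given without a share of all genes and are no comparison with other genes. DESeq2's Wald test called 1 of the 10 genes for Dox and 1 for Rh2, where edgeR called 0, and the cause was not tested. Over the 11 alternatives the log2 fold change with Dox stayed at 0.52 to 0.70 for Ly6c2, -0.84 to -0.33 for Adgre1 and -0.76 to -0.31 for Mrc1, and that with Rh2 at 0.54 to 0.75 for Cd163 and 0.28 to 0.58 for Mrc1. With each library left out in turn, the log2 fold change with Dox ran from -0.14 to 0.42 for Lyve1, -0.43 to 0.28 for Timd4 and -0.39 to 0.082 for Cd163. That with Rh2 ran from -0.38 to 0.62 for Timd4, -0.022 to 0.73 for Cd68, -0.17 to 0.21 for Adgre1, -0.029 to 0.42 for Csf1r, -0.21 to 0.22 for Trem2 and -0.19 to 0.18 for Ly6c2. Without both Rh2-30 mg/kg libraries, an alternative chosen after seeing the data, the sign turned with Dox for Folr2 (0.050), Timd4 (0.62) and Cd163 (0.047), and with Rh2 for Trem2 (-0.11) and Ly6c2 (0.077). These sign changes are of fold changes that passed no adjusted threshold in edgeR. Depth limits Trem2 and Timd4 most, at 59 to 160 and 79 to 312 counts.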

Other observations

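The 6 proliferation genes were all lower with Dox in each of the 3 pairs, as 17.6% of all genes were. Their median log2 ratios were -1.25, -1.81 and -3.39. Cenpf, a kinetochore gene, was called by edgeR's quasi-likelihood test (log2 fold change -1.24, SE 0.09, adjusted p = 0.0381). Of 7 dendritic cell genes tested, 6 were lower with Dox over Control. Their median log2 ratio was -0.65, beside -0.00 for all genes. Xcr1, the receptor that marks cross-presenting dendritic cells, was the gene past 2-fold lower in all 3 Dox pairs on any myeloid list. Of all genes, 0.497% were so. Xcr1 had 32, 9 and 25 counts without Dox and 9, 0 and 0 counts with it, at no Rh2, 20 mg/kg and 30 mg/kg. Its adjusted p in the same test was 0.519.

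Neutrophil genes were higher with Rh2-20 mg/kg in both settings. Of 6 genes tested, 4 were at least 2-fold higher with that dose than in Control, where 3.35% of all genes were. With that dose and Dox 5 were at least 2-fold higher than with Dox alone, where 3.08% of all genes were. S100a9, a calcium-binding protein of neutrophils and monocytes, had 204, 622 and 287 counts without Dox at no Rh2, 20 mg/kg and 30 mg/kg, and 173, 810 and 411 counts with Dox. Its log2 fold change with Rh2 was 1.36 (SE 0.46), with an adjusted p of 0.567 in edgeR's quasi-likelihood test.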
